A study of Bos taurus with 7 samples.

Results

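A set of 10 genes that act as brakes on MAP kinase signalling were compared in bovine luteal tissue of day 6 and day 4 of the estrous cycle. They are 6 dual-specificity phosphatase genes (DUSP1, DUSP2, DUSP4, DUSP5, DUSP6 and DUSP10), 3 Sprouty genes (SPRY1, SPRY2 and SPRY4) and SPRED1. They were chosen by gene symbol, and all 10 were found, each on 1 of the 19539 entries of the authors' deposited table. Messenger RNA of the whole gland was sequenced from day 6 (4 libraries) and day 4 (3 libraries). The cows of both days had been synchronised alike with a progesterone-releasing insert, 25 mg of prostaglandin F2α and 86 mcg of gonadotropin-releasing hormone, and per the labels received no other treatment. The comparison addresses how the gland gains luteolytic capacity, the ability to regress, which the title of the study sets beside luteal apoptosis and immune mechanisms. Per the labels, day 4 glands were collected at slaughter and those of cycle stages past day 6 by colpotomy, through the vaginal wall. The labels do not give the route on day 6 itself, so route and day cannot be told apart if they changed together. Nor is it stated that the libraries are from separate cows, in which case the p-values cover the spread between these samples alone, which may be technical.

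MAP kinases relay signals from receptors at the cell surface to the nucleus through chains of kinases, of which ERK, JNK and p38 are the end points. Growth factor receptors reach ERK through RAS and RAF. Dual-specificity phosphatases remove the activating phosphates from the MAP kinases themselves, while Sprouty and SPRED proteins act upstream, at the receptor, RAS and RAF. Many of these brakes are themselves switched on by the signal that they damp, so that they form negative feedback. In the corpus luteum, the progesterone-secreting gland built from the follicle after ovulation, prostaglandin F2α and growth factors both signal through MAP kinases. The roles given here are known mainly from human and mouse cells.

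Levels are the authors' mean TPM (a gene's share of all transcripts after scaling for transcript length) for each day. The authors' deposited table holds 1 mean per day and no value per library, so no spread can be put beside a level, and whether single libraries of both days overlap is not known. Sequencing depth per library is likewise unknown here, and no counting interval was computed. The labels only name a target depth, in reads per sample, that was the same for all. A log2 fold change, day 6 over day 4, was recovered by multiplying the deposited Wald statistic by its standard error, and stands with ± that error. A gene was called where the authors' deposited table gives it an adjusted p under 0.05.

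DUSP1 was the single brake that passed the test, and it fell. The authors' deposited table gives DUSP1 37.9 TPM on day 6, against 145 TPM on day 4. The log2 fold change of DUSP1 was -1.74 ± 0.29 (95% Wald interval -2.30 to -1.17, adjusted p = 3.90e-07 in the authors' deposited table). The day 6 level was thus 0.30 of the day 4 level on the Wald scale, with an interval of 0.20 to 0.44. By p-value DUSP1 stood at place 103 of the 19485 entries tested. Of the 10 brakes 0 were called higher and 1 lower. The authors' deposited table calls 14.5% of all entries tested, 4.12% higher and 10.4% lower, so a count of 1 in 10 lies near the background. The brakes had a median log2 fold change of -0.13, beside -0.04 over all entries tested. Of the brakes 9 averaged at least 1 TPM. Among all entries tested at that level the median was 0.03, with 5.48% called higher and 11.6% lower.

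**Figure D1:**
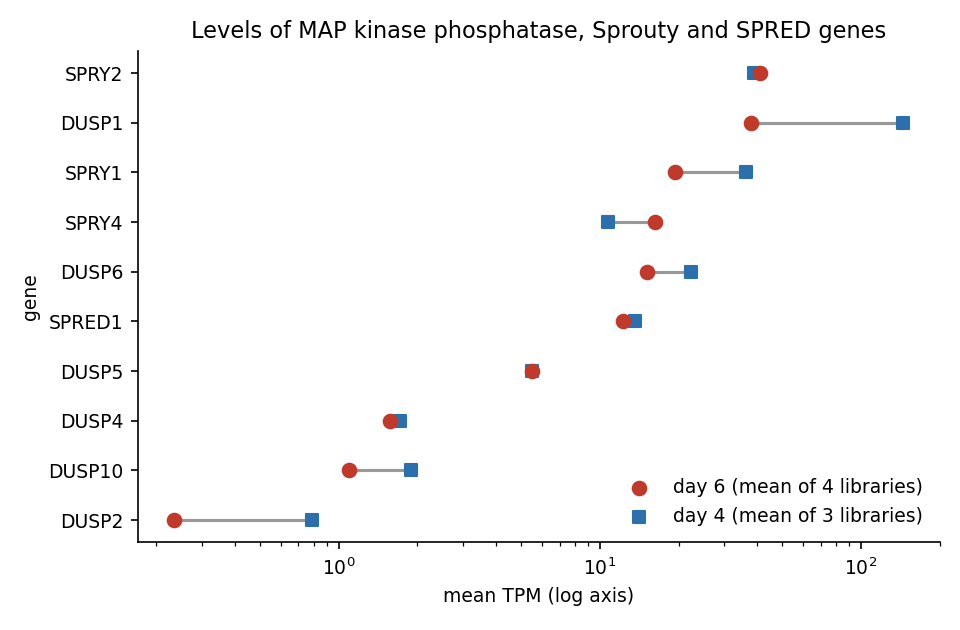
Mean TPM of each of the 10 genes on day 6 (red circles, 4 libraries) and day 4 (blue squares, 3 libraries) in the authors' deposited table, on a log axis, ordered by the day 6 level. The longest lines belong to DUSP1 (37.9 TPM on day 6, 145 TPM on day 4) and DUSP2 (0.234 TPM on day 6, 0.789 TPM on day 4).

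DUSP1 sits in the nucleus and dephosphorylates JNK, p38 and ERK. Its gene is an immediate early gene, transcribed within minutes of growth factor or stress signals. By mean TPM in the authors' deposited table it stood at place 2639 of all entries on day 6, against place 741 on day 4. The most abundant of the 10 brakes was SPRY2 on day 6, at 40.9 TPM, and DUSP1 on day 4, in the authors' deposited table.

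The other nuclear phosphatases had lower levels, and none was called. DUSP2, which acts on ERK and p38 and is best known from activated lymphocytes, was the scarcest brake, with 0.234 TPM on day 6, against 0.789 TPM on day 4 in the authors' deposited table. Its log2 fold change was -1.55 ± 0.60 (interval -2.72 to -0.38), close in size to that of DUSP1 but with a larger standard error, and its adjusted p was 0.0612 in the authors' deposited table. DUSP4, which acts on ERK and JNK, had 1.57 TPM on day 6 and 1.71 TPM on day 4 in the authors' deposited table, with a log2 fold change of 0.12 ± 0.41 (interval -0.69 to 0.92, adjusted p = 0.892). The point estimate of DUSP4 changes sign with scaling, being -0.10 on the TPM scale explained below. DUSP5, a phosphatase specific to ERK, had 5.496 TPM on day 6 and 5.47 TPM on day 4 in the authors' deposited table. Its log2 fold change of 0.24 ± 0.33 had an interval of -0.40 to 0.88, which leaves room for a fold of 0.76 to 1.84.

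The phosphatases that are not confined to the nucleus were not called either. DUSP6, the cytoplasmic phosphatase specific to ERK and a common readout of ERK activity, had 15.2 TPM on day 6, against 22.3 TPM on day 4 in the authors' deposited table. The log2 fold change of DUSP6 was -0.33 ± 0.16, and its interval of -0.64 to -0.02 lay below 0, but adjusted p was 0.145 in the authors' deposited table. DUSP10, found in both nucleus and cytoplasm and selective for JNK and p38, had 1.09 TPM on day 6 and 1.89 TPM on day 4 in the authors' deposited table (log2 fold change -0.55 ± 0.40, interval -1.33 to 0.24, adjusted p = 0.374). Of the 6 phosphatases 5 had a lower mean TPM on day 6 than on day 4, and DUSP5 differed by 0.01 on the log2 scale of mean TPM. On the Wald scale 4 of the 6 estimates were negative and 2 positive.

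**Figure D2:**
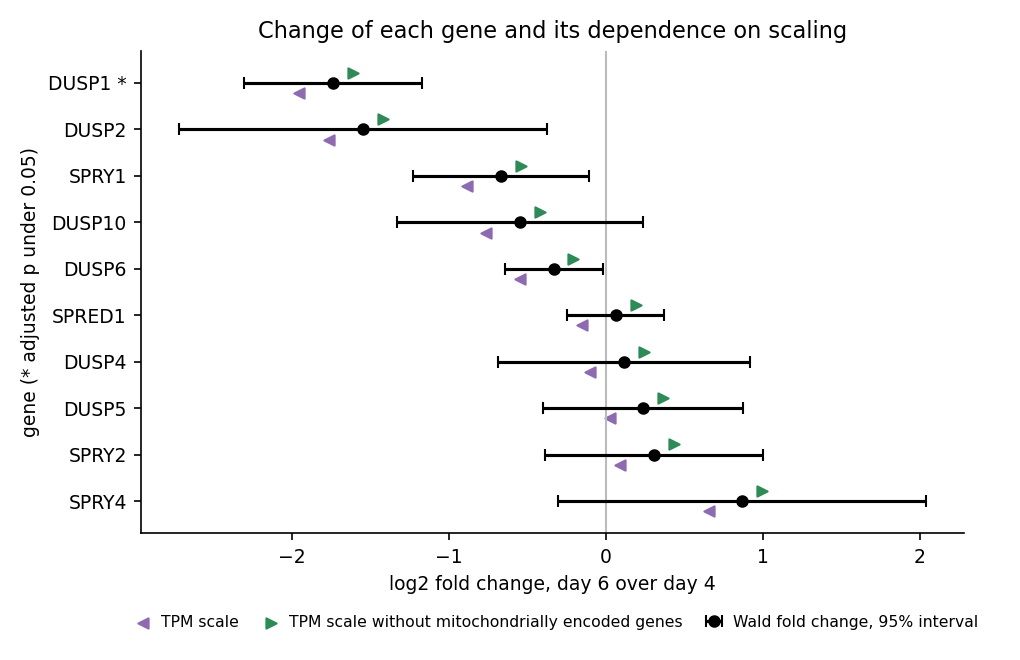
Log2 fold change, day 6 over day 4, of the 10 genes with the 95% Wald interval (black), and the same estimate on the TPM scale (purple) and on the TPM scale recomputed without mitochondrially encoded genes (green). The asterisk marks DUSP1 (-1.74), the gene with adjusted p under 0.05, and the estimates of DUSP4 and SPRED1 lie on either side of 0 depending on the scale.

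None of the Sprouty genes was called. Sprouty proteins block growth factor receptor signalling on its way to RAS and RAF. SPRY1 had 19.3 TPM on day 6, against 36.4 TPM on day 4 in the authors' deposited table, a log2 fold change of -0.67 ± 0.28 (interval -1.22 to -0.11) that was not called (adjusted p = 0.0961 there). Its locus overlaps another protein-coding gene in the RefSeq annotation, so its value is uncertain where shared reads were not resolved. SPRY2 had 40.9 TPM on day 6 and 38.8 TPM on day 4 in the authors' deposited table (log2 fold change 0.31 ± 0.35, interval -0.39 to 0.998, adjusted p = 0.608).

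SPRY4 had the largest positive estimate of the 10, with 16.3 TPM on day 6 and 10.7 TPM on day 4 in the authors' deposited table. Its log2 fold change of 0.87 ± 0.60 had the widest interval of the 10, from -0.30 to 2.04, and adjusted p was 0.335 in the authors' deposited table. SPRED1, which brings the RAS inhibitor neurofibromin to the membrane, was among the most tightly measured brakes, with 12.2 TPM on day 6 and 13.7 TPM on day 4 in the authors' deposited table. Its log2 fold change was 0.06 ± 0.16 and the interval of -0.24 to 0.37 spans folds of 0.84 to 1.29. On the TPM scale the estimate for SPRED1 was -0.15. The differences between single brakes were not tested, since estimates of genes from the same libraries share their errors.

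The composition of the brakes differed between the days mainly through DUSP1. The 6 phosphatase genes summed to 61.5 TPM on day 6, against 178 TPM on day 4, in the authors' mean values. Without DUSP1 the other 5 summed to 23.6 TPM on day 6 and 32.2 TPM on day 4. DUSP1 made up 61.7% of the phosphatase sum on day 6, against 81.9% on day 4, and DUSP6 made up 24.7% on day 6, against 12.6% on day 4. The Sprouty and SPRED genes summed to 88.8 TPM on day 6 and 99.6 TPM on day 4, so they held more transcripts than the 6 phosphatases on day 6 and fewer on day 4. Within that sum SPRY1 held 21.8% on day 6, against 36.6% on day 4, while SPRY4 held 18.3% on day 6, against 10.8% on day 4. These sums and shares rest on 1 mean per day and have no test.

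**Figure D3:**
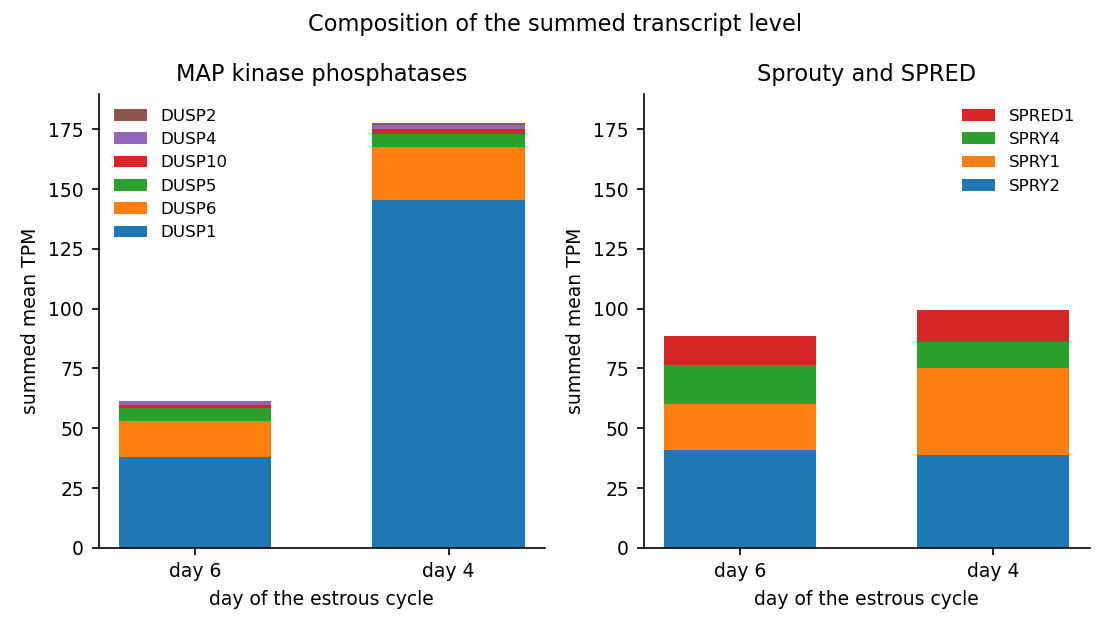
Summed mean TPM of the 6 phosphatase genes (left) and of the Sprouty genes with SPRED1 (right) on day 6 and day 4, stacked by gene, with both vertical axes starting at 0. The phosphatase bar stands at 61.5 TPM on day 6 and 178 TPM on day 4, mostly DUSP1, while the Sprouty and SPRED bars stand at 88.8 TPM on day 6 and 99.6 TPM on day 4.

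How small a change could have been called differed widely among the brakes. The weakest call in the authors' deposited table had a Wald statistic of 2.69 in size. At their standard errors SPRED1 and DUSP6 would have been called at a log2 change of 0.42 and 0.43 in size. SPRY4 and DUSP2 would have needed 1.61 each, a fold of 3.04. SPRY4 had a wide error for its level, its standard error of 0.60 standing beside a median of 0.21 among 3592 entries whose mean TPM lay within 1.5-fold of it. Of those entries 3.54% had a larger standard error. SPRY2 had 0.35, beside a median of 0.22 among 2071 entries of like level. For DUSP2 (0.60, beside 0.70) the standard error was not above that of entries of like level.

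**Figure D4:**
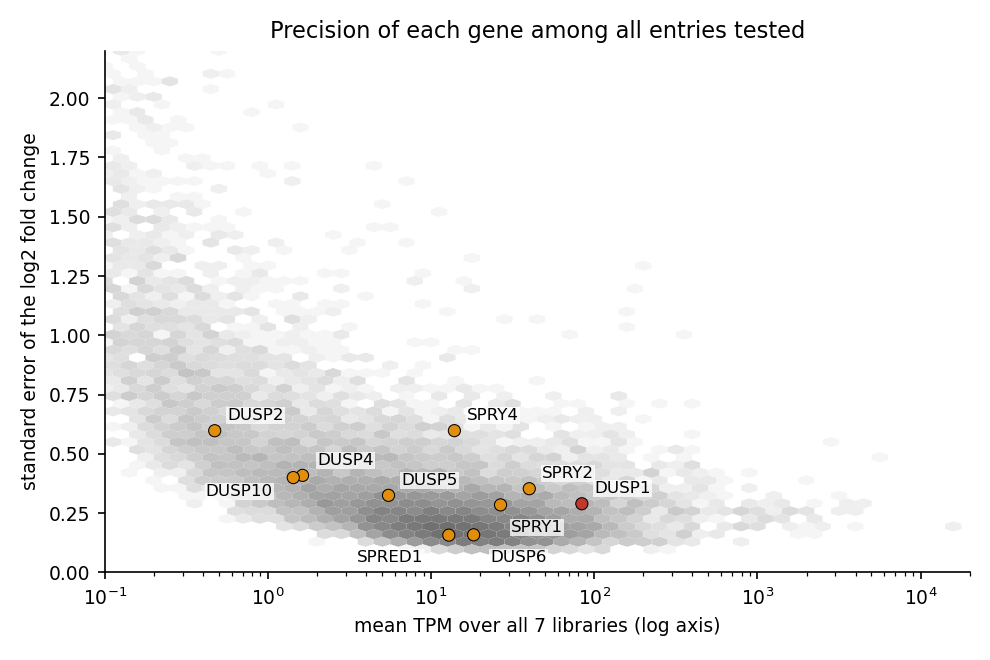
Standard error of the log2 fold change in the authors' deposited table against mean TPM over all 7 libraries (log axis), for the 10 genes (orange, DUSP1 in red) over the density of entries tested (grey, darker where there are more; entries under 0.1 TPM or outside the axes are not drawn). SPRY4 (0.60) lies above most entries of its level, and DUSP6 and SPRED1 (0.16 each) lie low.

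The calls of 3 brakes turn on the scaling. For 10599 entries with a mean of 5 TPM or more, the Wald fold change exceeded the log2 ratio of the mean TPM by a median of 0.21, and taking off that shift gives the TPM scale. There DUSP2 (-1.76, adjusted p = 0.02), DUSP6 (-0.55, adjusted p = 0.00549) and SPRY1 (-0.88, adjusted p = 0.0140) were called lower along with DUSP1, 4 of 10 in all, by the Wald test recomputed on that scale. Over all entries, 299 were higher and 3829 lower on the TPM scale, against 803 higher and 2020 lower on the Wald scale. The 13 mitochondrially encoded genes held 29.2% of mean TPM on day 6, against 10.3% on day 4, and a gene of steady share among the remaining transcripts therefore has a lower TPM on day 6. On the TPM scale without these genes, where 1848 entries were higher and 1595 lower, the brakes called were DUSP1 alone, at -1.61. DUSP1 was negative and called on each of these scales.

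The remaining genes of both families are given beside a background of 4.12% of all entries called higher and 10.4% lower. Of the other MAP kinase phosphatases DUSP7, DUSP8, DUSP9 and DUSP16, 0 of 4 were called by the authors' DESeq2 Wald test. An unadjusted p under 0.05 was reached by 1 of the 4, DUSP8, a JNK and p38 phosphatase, with 1.58 TPM on day 6, against 3.04 TPM on day 4 in the authors' deposited table (log2 fold change -0.72 ± 0.33, adjusted p = 0.121). Of 15 atypical dual-specificity phosphatases, small relatives that lack the kinase-docking domain, 1 was called higher and 1 lower. DUSP26 was nearly lost, with 0.0494 TPM on day 6, against 3.48 TPM on day 4 in the authors' deposited table (log2 fold change -6.03 ± 1.08, adjusted p = 2.58e-06). STYXL1, which encodes a catalytically inactive relative, rose to 3.96 TPM on day 6, against 1.78 TPM on day 4 in the authors' deposited table (log2 fold change 1.39 ± 0.33), and its locus overlaps that of MDH2 in the RefSeq annotation. Of SPRY3, SPRED2 and SPRED3 0 of 3 were called by the same test, and 1 reached an unadjusted p under 0.05. That gene, SPRY3, had 4.07 TPM on day 6 and 1.88 TPM on day 4 in the authors' deposited table (log2 fold change 1.39 ± 0.60, adjusted p = 0.0981). On the TPM scale, where 299 entries were higher and 3829 lower, DUSP8 was called lower (adjusted p = 0.0252 by the recomputed Wald test). Of the atypical phosphatases 1 was higher and 3 were lower on that scale. Without the mitochondrially encoded genes the calls of these lists were those of the Wald scale.

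Other inhibitors of receptors and RAS were called in both directions, 2 of 23 higher and 3 lower, with a median log2 fold change of 0.06. For this and each list that follows, the background on the Wald scale is 4.12% of all entries called higher and 10.4% lower. The median over all entries there is -0.04. Counts on the TPM scale have another background, 299 higher and 3829 lower of the 19485 entries tested. Without the mitochondrially encoded genes it is 1848 higher and 1595 lower. The split of these inhibitors depended on scaling, with 1 higher and 6 lower on the TPM scale and 5 higher and 3 lower without the mitochondrially encoded genes. RASA3, a RAS GTPase-activating protein, fell to 5.84 TPM on day 6, against 31.2 TPM on day 4 in the authors' deposited table (log2 fold change -2.23 ± 0.48, adjusted p = 0.000124). LRIG3, of a family of receptor-binding membrane proteins, fell to 1.95 TPM on day 6, against 5.96 TPM on day 4 there. PTPN7, a blood cell phosphatase of ERK and p38, fell to 0.535 TPM on day 6, against 1.47 TPM on day 4 in the authors' deposited table. NF1, which encodes neurofibromin, the partner of SPRED1, rose to 13.3 TPM on day 6, against 8.51 TPM on day 4 in the authors' deposited table (log2 fold change 0.90 ± 0.32, adjusted p = 0.0375). The call of NF1 was lost on the TPM scale (adjusted p = 0.113), and EVI2A, EVI2B and OMG lie within its locus in the RefSeq annotation. PTPN5, another phosphatase of ERK and p38, rose to 6.09 TPM on day 6, against 2.40 TPM on day 4 in the authors' deposited table.

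Genes of the ERK pathway also went both ways. Among adaptors, RAS proteins and the ERK cascade 2 of 33 were higher and 3 lower, with a median of 0.16. On the TPM scale 0 were higher and 6 lower, and 5 were higher and 3 lower once the mitochondrially encoded genes were left out. PTPN11, the phosphatase SHP2 that promotes RAS activation, rose to 48.5 TPM on day 6, against 33.2 TPM on day 4 in the authors' deposited table (log2 fold change 0.79 ± 0.29, adjusted p = 0.0444). The call of PTPN11 was lost on the TPM scale (adjusted p = 0.148). RRAS2, a RAS relative, fell to 15.5 TPM on day 6, against 31.04 TPM on day 4 in the authors' deposited table. MAPK7, which encodes ERK5 (8.57 TPM on day 6, 21.6 TPM on day 4), and the adaptor GAB2 (9.65 TPM on day 6, 28.6 TPM on day 4) also fell in the authors' deposited table.

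In the JNK and p38 cascades, whose end kinases DUSP1 and DUSP10 dephosphorylate, 2 of 27 were higher and 4 lower, with a median of 0.08. On the TPM scale 1 was higher and 6 were lower, and 4 were higher and 3 lower once the mitochondrially encoded genes were left out. MAP3K20, a stress-activated kinase (35.2 TPM on day 6, 23.95 TPM on day 4), and MAPK9, which encodes JNK2 (31.8 TPM on day 6, 20.7 TPM on day 4), rose in the authors' deposited table. MAPK9 was not called on the TPM scale (adjusted p = 0.0915). MAP3K5, the apoptosis signal-regulating kinase, fell to 0.623 TPM on day 6, against 4.34 TPM on day 4 in the authors' deposited table (log2 fold change -2.59 ± 0.58, adjusted p = 0.000329). The others that fell were scarce. MAP3K8, an activator of the ERK and JNK pathways, fell to 0.881 TPM on day 6, against 2.73 TPM on day 4 in the authors' deposited table. MAPK11, of the p38 family, had 0.611 TPM on day 6, against 2.205 TPM on day 4, and fell there (log2 fold change -1.66 ± 0.45). MAPK12, also of the p38 family, fell to 1.56 TPM on day 6, against 2.87 TPM on day 4 in the authors' deposited table. Without the mitochondrially encoded genes in the TPM scale MAPK12 was not called (adjusted p = 0.0943).

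In the list for ERK-induced transcription 1 of 26 genes was called higher and 9 lower, beside 4.12% higher and 10.4% lower over all entries tested. The median log2 fold change of the list was -0.32. It is not confined to genes that ERK induces, since it also holds the transcription factors ELK1, ELK3, ELK4 and SRF. None of these was called on the Wald scale. The counts leave out FOSB, an AP-1 gene whose entry has no usable test. FOSB had 0.377 TPM on day 6, against 6.88 TPM on day 4 in the authors' deposited table. Of the lower calls 3 (JUND, EGR2 and IER2) were lost without the mitochondrially encoded genes, which left 6. FOS, an AP-1 subunit and like DUSP1 an immediate early gene, fell to 9.54 TPM on day 6, against 218 TPM on day 4 in the authors' deposited table (log2 fold change -4.32 ± 0.58, adjusted p = 1.16e-10). JUN, its partner in AP-1, fell to 18.3 TPM on day 6, against 182 TPM on day 4 there. EGR1, a zinc finger transcription factor, fell to 41.4 TPM on day 6, against 268 TPM on day 4, and MYC to 15.4 TPM on day 6, against 63.3 TPM on day 4 in the authors' deposited table. FOSL2, another AP-1 gene, rose to 198 TPM on day 6, against 153 TPM on day 4 there (log2 fold change 0.59 ± 0.16), a call lost on the TPM scale (adjusted p = 0.0709). The fall of DUSP1 (-1.74) was thus smaller in its point estimate than those of FOS (-4.32), JUN (-3.10) and EGR1 (-2.50), and no difference between these genes was tested. The part of the collection route in these values was not tested.

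Upstream of RAS, 2 of 34 receptor tyrosine kinases and ligands were higher and 11 lower, with a median of -0.66. On the TPM scale 2 were higher and 17 lower, and 3 were higher and 9 lower once the mitochondrially encoded genes were left out. IGF1R, which binds insulin-like growth factors, rose to 27.3 TPM on day 6, against 18.5 TPM on day 4 in the authors' deposited table. Its locus overlaps that of the protein-coding gene PGPEP1L in the RefSeq annotation. NTRK2, the receptor of brain-derived neurotrophic factor, fell to 1.36 TPM on day 6, against 21.5 TPM on day 4 in the authors' deposited table (log2 fold change -3.89 ± 0.61). PDGFRA, a receptor of platelet-derived growth factor carried by fibroblasts, fell to 34.8 TPM on day 6, against 151 TPM on day 4 there. FGF10, a fibroblast growth factor (0.161 TPM on day 6, 3.95 TPM on day 4), and ERBB3, of the EGF receptor family (0.343 TPM on day 6, 2.58 TPM on day 4), fell to low levels in the authors' deposited table.

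**Figure D5:**
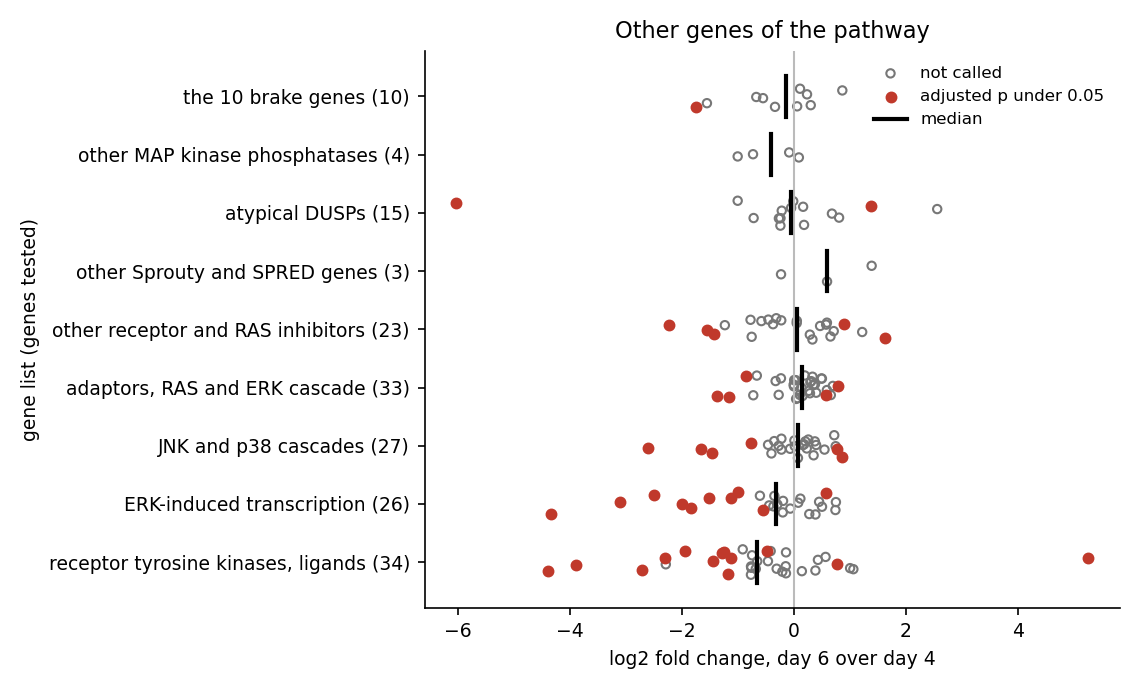
Log2 fold change, day 6 over day 4, of each gene tested in the 10 brakes and in 8 lists of other pathway genes (points), with adjusted p under 0.05 in the authors' deposited table in red and the list median as a black bar. The lists with the highest shares of called genes are ERK-induced transcription (10 of 26 called) and receptor tyrosine kinases with their ligands (13 of 34 called).

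The mixture of cell types in the tissue also differed in its markers, and fewer cells of a type cannot be told apart from less RNA per cell in bulk tissue. The luteal label fitted the markers of steroidogenic luteal cells, 8 of 8 of which were present, with a summed level of 26658 TPM on day 6, against 14090.1 TPM on day 4. Of these 2 were called higher (STAR and SCARB1) and 0 lower, and the call of SCARB1 was lost on the TPM scale (adjusted p = 0.0545). Not all of the 8 are steroidogenic genes. The oxytocin gene OXT alone held 10393 TPM of the sum on day 6 and 8052 TPM on day 4 (log2 fold change 0.56 ± 1.33, not called). Of pericyte and smooth muscle markers 0 of 8 were higher and 4 lower (ACTA2, MYH11, TAGLN and CNN1), with a summed level of 614 TPM on day 6, against 2288 TPM on day 4. Their median log2 fold change was -1.15, with 1 positive and 7 negative. The 4 not called on the Wald scale had smaller estimates: RGS5 (0.05), CSPG4 (-0.18), NOTCH3 (-0.45) and PDGFRB (-0.46). Of immune markers 0 of 10 were higher and 4 lower (CSF1R, CD3E, CD14 and NKG7), with a sum of 36.4 TPM on day 6, against 82.7 TPM on day 4. Immune markers called lower numbered 7 on the TPM scale, and 3 without the mitochondrially encoded genes, where NKG7 was not called (adjusted p = 0.0666). Fibroblast markers had 0 of 8 higher and 3 lower (DCN, PDGFRA and FBLN1), with a sum of 10170.4 TPM on day 6, against 12448 TPM on day 4. Their median log2 fold change was -0.02, with 4 positive and 4 negative. Endothelial markers had 0 of 8 higher and 1 lower (CLDN5), with a sum of 238 TPM on day 6, against 307 TPM on day 4. Their median was -0.15, with 3 positive and 5 negative. A gene of steady share among transcripts that are not mitochondrially encoded has a lower TPM on day 6, which bears on all these sums. On the TPM scale 5 pericyte and smooth muscle markers and 2 endothelial markers were called lower. Of 3 blood cell markers tested 0 were called by the authors' DESeq2 Wald test and 0 reached an unadjusted p under 0.05. These 3 summed to 0.931 TPM on day 6 and 0.413 TPM on day 4. The sum leaves out HBA, an entry without a usable test and the most abundant of these markers. HBA had 3.56 TPM on day 6, against 15.1 TPM on day 4 in the authors' deposited table. The part of these markers' cell types in the fall of DUSP1 was not tested.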

How the data were processed

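The deposited file is 1 table of the authors with a mean TPM per day and 1 test per entry, without values per library. Per the submitters' processing notes FastQC, DESeq2 and the build ARS-UCD1.2 were used. Neither the read counter nor the annotation is given in the sources used here. TPM was read from the values, since each of the authors' mean columns sums to 999999. The authors' deposited log2 value adds 1 to both mean TPM before taking their ratio, and was replaced by the deposited score (the Wald statistic) times its log2 standard error. In 19485 entries the authors' p-value follows from the score by a two-sided normal test; 54 others were left out of all tests. Calls use the authors' adjusted p-value under 0.05. No test across libraries was run.

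The 10 genes and the lists were chosen with earlier results of these data known. Named are all 10, and per pathway list at most 4 called genes per direction by adjusted p, or, with none called, the gene of smallest adjusted p averaging at least 1 TPM; cell type lists give their called genes. Some genes the rule selects are not reported here. No gene of similar pattern was sought, since 1 mean per day gives no measure of likeness. Counts per list are to be read beside the shares of all entries called, with no set test. Genes were matched by name to RefSeq ARS-UCD2.0. Overlapping loci are those of that annotation, not of the build ARS-UCD1.2 named by the submitters. The recomputed Wald tests and Benjamini-Hochberg adjustment (Python 3.11.15, scipy 1.17.1) were tested on simulated data.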

Additional observations from a re-analysis of the deposited data

How the results depend on the processing

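DUSP1 was called lower under 5 of 6 alternatives and kept its sign in all 8 computed for it, between -1.95 and -1.61. Replacing the normal by a t distribution with 5 degrees of freedom ended its call (adjusted p = 0.245, unadjusted p = 0.00186) and called 0 of the brakes, 0 listed pathway genes and 0 entries in either direction, with 3133 entries at an unadjusted p under 0.05. Brakes called lower numbered 4 on the TPM scale. All entries called higher and lower were 301 and 1142 at an adjusted p under 0.01, 299 and 3829 on the TPM scale, and 45 and 457 against a fold of 1.5; without the mitochondrially encoded genes 1848 were higher. Pathway genes (10 higher, 31 lower) numbered 5 and 18, 5 and 49, and 1 and 10 in the same settings, and 19 higher without those genes. The estimates of DUSP4 and SPRED1 changed sign without being called: DUSP4 was -0.10 on the TPM scale, -0.077 as a log2 ratio with 1 TPM added and -0.12 with 0.1 TPM added, and SPRED1 was -0.15, -0.15 and -0.16. No brake had a repeated symbol, so the choice of row could not be varied. No paired analysis was possible because the deposited table holds 1 mean per day, and leaving out libraries was not possible for the same reason. The unknown depth limits what can be said of DUSP2, at under 1 TPM on both days.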

Other observations

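Among the other inhibitors of receptor and RAS signalling, several named after their values were seen came close to a call. ERRFI1, a feedback inhibitor of the EGF receptor, had 26.6 TPM on day 6, against 71.6 TPM on day 4 in the authors' deposited table (log2 fold change -1.23 ± 0.47, adjusted p = 0.0588). LRIG1, which promotes the loss of EGF receptors from the membrane, had 8.90 TPM on day 6, against 17.1 TPM on day 4 there (adjusted p = 0.0951). RASA1, a RAS GTPase-activating protein, had 31.4 TPM on day 6, against 23.1 TPM on day 4 in the authors' deposited table (adjusted p = 0.0666).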
